A study of Mus musculus with 2 samples.

Results

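The genes described here are 35 mouse genes of ribosome construction in the nucleolus, taken by name from the 17216 genes listed in the series. The list holds rRNA processing factors, proteins of the box C/D and H/ACA ribonucleoproteins, RNA polymerase I components and ribosome assembly factors, together with Myc. All 35 were found by Entrez gene identifier, all were listed in both libraries, and all passed the filter on low values, an average of 1 FPKM or more over both libraries. FPKM scales fragments to transcript length and to the size of the library, so levels can be compared between genes. Pairs of FPKM values below give the wild type first and the Ccp3-/- library second.

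The libraries came from cells of C57BL/6 mice sorted for LT-HSCs, the long-term haematopoietic stem cells, which are the rare marrow cells that sustain blood formation. The gate took cells that lacked lineage markers and CD48 and carried Sca-1, c-Kit and CD150. One library was from wild type littermates and the other from mice of genotype Ccp3-/-, which are deficient in the cytosolic carboxypeptidase CCP3, an enzyme that trims glutamate residues from proteins. The labels give neither the age nor the number of the mice, nor the part of the gene that was deleted. No test was possible with a single library on each side, so every difference compares these 2 libraries rather than the genotypes.

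Ribosomes are built in the nucleolus. RNA polymerase I copies the ribosomal DNA into a long precursor, the proteins of box C/D and H/ACA particles modify it at sites chosen by their small nucleolar RNAs, and successive assembly factors fold and cut it into the RNAs of the small (40S) and large (60S) subunits. The transcription factor MYC is a known activator of many of these genes, and in haematopoietic stem cells protein synthesis is known to be kept low.

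Depth and composition bear on all values below. Low FPKM values were spaced as if about 15.3 M (wild type) and 14.2 M (second library) reads had been counted, from which reads per gene and approximate 95% intervals of each ratio were estimated. Those intervals cover counting error only. Agbl3, which encodes CCP3, was listed at 1.11 and 0.66 FPKM, a ratio of 0.595 (0.289 to 1.19), which did not check the genotype label, so the second library is called the knockout-labelled library. Of the stem cell markers examined, 3 of 12 were lower by 1.5-fold or more and 1 was higher, and their levels summed to 268 and 196 FPKM. Neutrophil lineage markers summed to 8609 and 11983 FPKM with 7 of 12 at least 1.5-fold higher. B cell markers (9 of the 9 measured at 1 FPKM or more) and dendritic cell markers (7 of 9) were at least 1.5-fold lower, with sums of 148 and 64.9 FPKM and of 545 and 319 FPKM. Erythroid markers were at least 1.5-fold lower in 6 of 10 cases, with sums of 1653 and 559 FPKM, and no marker was listed at 0 in either library. Although the gate took CD48-negative cells, Cd48 was listed at 136 and 114 FPKM, while Slamf1, which encodes CD150, stood at 2.14 and 3.40 FPKM. In such bulk libraries fewer cells of a type and less RNA per cell cannot be told apart, and the part of these markers in the results below was not tested.

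None of the 35 genes differed by 1.5-fold between the libraries. On the log2(FPKM + 1) scale, on which a difference is the knockout-labelled minus the wild type value, the genes ranged from −0.49 for Nop56 to 0.54 for Ddx21 and had a median of 0.18. Of the 11985 genes that passed the filter, 6.11% were higher by this fold and 6.13% lower, and the median was 0.01. The quartiles of the 35 were 0.04 and 0.34, against −0.22 and 0.23 over all genes. At a smaller size of 1.25-fold on the same scale, 9 of the 35 were higher, where 17.9% of all genes were, and 1 was lower, where 17.1% were. In all, 27 of the 35 lay above 0 and 8 below (34 and 1 with equal FPKM sums, 25 and 10 with equal upper quartiles), while 50.8% of all genes lay above 0. The counting interval lay above a ratio of 1 for 21 genes and below it for 3, against 31.2% and 27.0% of all genes, and it included 1 for 11. Such intervals narrow with more reads. The median level in the wild type was 43.7 FPKM for the 35 and 11.6 FPKM for all genes, so these shares are not on equal terms. With the FPKM sums of the libraries made equal, the median of all genes moved to 0.18 and that of the 35 to 0.36, and 5 of the 35 were then at least 1.5-fold higher and 0 lower (12.3% and 3.31% of all genes).

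**Figure D1:**
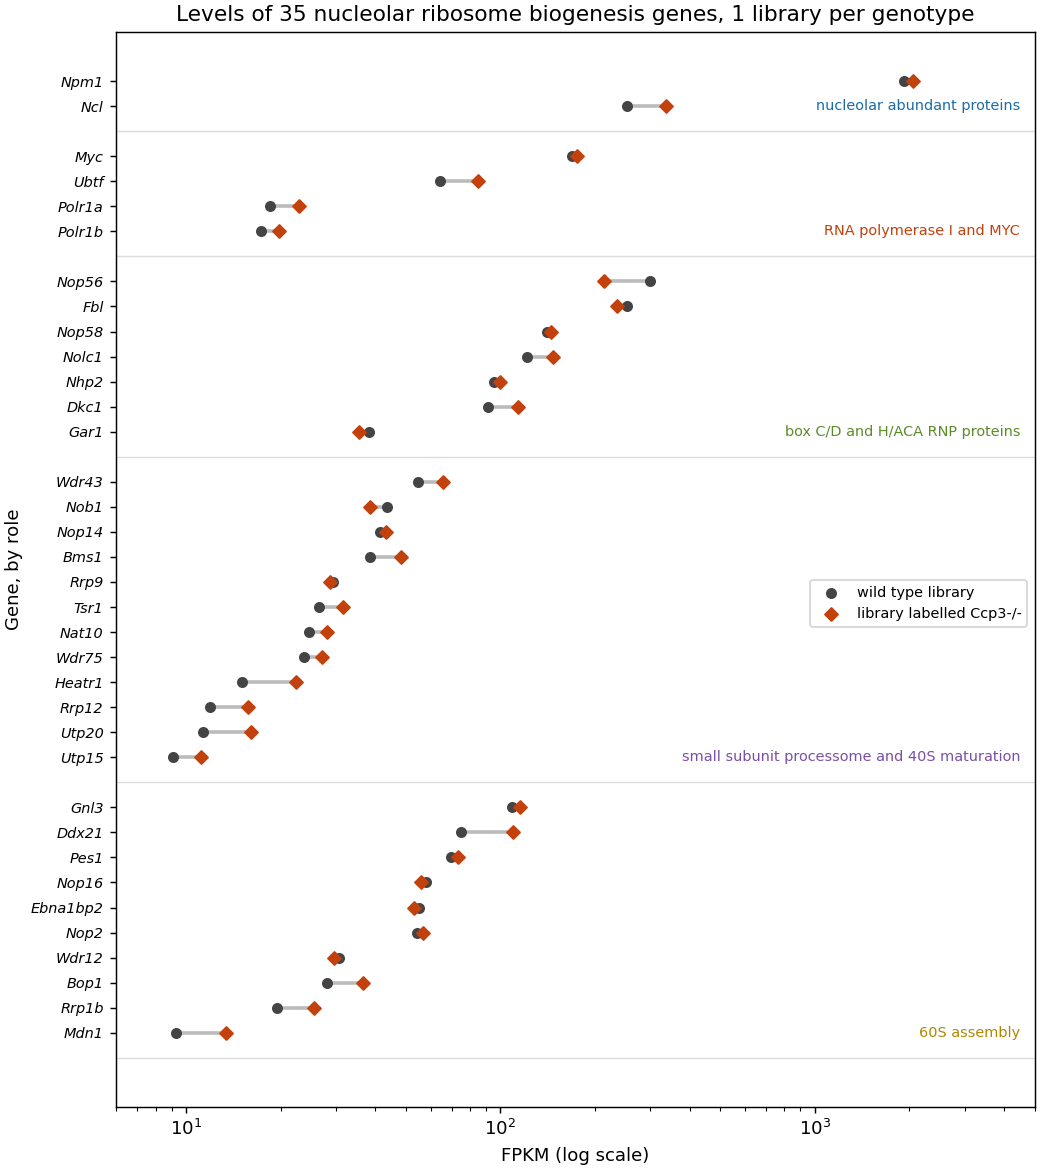
FPKM on a log axis for each of the 35 genes, grouped by role, with circles for the wild type library and diamonds for the library labelled Ccp3-/-, 1 library each. The paired symbols lie close together over a range from 9.10 FPKM (Utp15, wild type) to 2047 FPKM (Npm1, knockout-labelled), and the widest leftward gap belongs to Nop56.

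Nucleophosmin and nucleolin are the 2 abundant, multifunctional proteins of the nucleolus. Npm1, the highest of the 35 transcripts, which encodes nucleophosmin, a chaperone of histones and ribosomal proteins there, was listed at 1915 and 2047 FPKM, a ratio of 1.07 (1.05 to 1.08). It made up 44.4% and 44.3% of the summed FPKM of the 35 genes. Npm1 has processed pseudogenes, between which and the gene reads could be split, so its level is uncertain. Ncl, which encodes the rRNA-binding protein nucleolin, was listed at 253 FPKM and 336 FPKM, a ratio of 1.33 (1.31 to 1.35). The nucleolin transcript, with about 31851 and 39249 reads behind it, was further apart between the libraries than that of nucleophosmin as deposited, but this order turned round after centring on transcript length (differences of 0.07 for Ncl and 0.22 for Npm1). The files give Ncl a single transcript of 8257 bases, of which the coding length of 2121 bases in GENCODE is 25.7%, the lowest share of the 35 genes, whose median was 73.4%. FPKM divides by that length. The FPKM of Ncl was 0.132 and 0.164 times that of Npm1, while about 39309 and 38821 reads lay behind Npm1. The centred value of Ncl, the turned order and its place among the longest genes below also rest on that length. A shorter length was not tried.

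The 3 genes of ribosomal DNA transcription and Myc were all listed higher in the knockout-labelled library, Myc with the exception of 1 scaling given below. Polr1a, the gene of the largest catalytic subunit of RNA polymerase I, stood at 18.5 and 22.8 FPKM, a ratio of 1.23 (1.15 to 1.32). Polr1b, the second largest subunit, stood at 17.3 and 19.8 FPKM, a ratio of 1.14 (1.05 to 1.24). Per length the transcripts of these 2 subunits were of like level, with a Polr1a to Polr1b ratio of 1.07 (0.988 to 1.15) in the wild type and 1.15 (1.07 to 1.24) in the knockout-labelled library, a change within counting error. Ubtf, whose product UBF binds and opens the ribosomal DNA, was more abundant than either, at 64.4 and 84.8 FPKM, a ratio of 1.32 (1.26 to 1.37). Myc was listed at 168.8 and 175 FPKM, a ratio of 1.04 with an interval that included 1, and its difference was below 0 when the libraries were scaled to the same upper quartile. So the Myc difference was within counting error, while that of Ubtf was beyond it.

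MYC and its partner MAX bind the sequence CACGTG, called an E-box, and the 30 members with an entry in the RefSeq promoter table (GRCm38.p6) were searched for it. The window ran from 250 bases before to 50 bases after each annotated start, the motif reads the same on both strands, and a gene with several starts counted if any of them held it. In the whole window 6 of 30 genes held CACGTG, against 17.8% of 118 other ribosome biogenesis genes, 12.5% of 7151 expressed genes (5 FPKM or more on average) and 8.09% of 27025 genes in the table. In the 250 bases upstream, 1 of 30 did (3.33%), against 11.9% of the other ribosome biogenesis genes, 10.4% of the expressed genes and 6.86% of the table. In the 50 bases from the start onward, 5 of 30 did (16.7%), against 1.28% of the table, 2.20% of the expressed genes, and 7.63% of the other ribosome biogenesis genes. The whole window and the one after the start were chosen after the matches were seen, and a match is a description, not a binding site. The 6 matches are shown with the motif in capitals, each as 30 bases on the gene's own strand, because their position close to the start is what the counts above describe.
Nop2, GRCm38.p6 chr6:125131811-125131840, plus strand, motif 60 bases before the start: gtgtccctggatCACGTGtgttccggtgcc
Pes1, GRCm38.p6 chr11:3963965-3963994, plus strand, motif from base 3 after the start: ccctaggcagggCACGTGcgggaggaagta
Wdr43, GRCm38.p6 chr17:71616220-71616249, plus strand, motif from base 18: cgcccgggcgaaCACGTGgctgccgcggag
Tsr1, GRCm38.p6 chr11:74898092-74898121, plus strand, motif from base 25: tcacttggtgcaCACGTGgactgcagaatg
Utp20, GRCm38.p6 chr10:88826765-88826794, minus strand, motif from base 38: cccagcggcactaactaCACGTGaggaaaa
Mdn1, GRCm38.p6 chr4:32657139-32657168, plus strand, motif from base 39: caacgtgaattccttcacCACGTGtgtgtc
The flanks of the motif differ from gene to gene. The end of the window was found in a GENCODE transcript for 24 of the 30 members. Among the 6 shown it was not found for Nop2 and Utp20, so their annotated starts were not checked in this way. The differences of these 6 genes between the libraries were 0.06 for Nop2, 0.07 for Pes1, 0.27 for Wdr43, 0.24 for Tsr1, 0.47 for Utp20 and 0.48 for Mdn1, so they spanned most of the range above 0 of the whole list. Of the other motifs searched on both strands, CCGGAAG, the core bound by ETS factors, was in the whole window of 8 of 30 members (26.7%), of 23.5% of expressed genes and of 45.8% of the other ribosome biogenesis genes. The TATA box motif TATAAA was there in 2 of 30 (6.67%), against 7.97% of expressed genes.

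The box C/D and H/ACA proteins held the one gene that stood apart on the low side. Nop56, a core protein of the box C/D particles that carry out rRNA methylation, was listed at 299 and 213 FPKM, from about 8552 and 5648 reads, a ratio of 0.712 (0.688 to 0.736). Its partner in the same particle, Nop58, was listed at 141 and 144 FPKM, a ratio of 1.03 (0.983 to 1.07). Fbl, the gene of the methyltransferase fibrillarin, stood at 253 and 234 FPKM, a ratio of 0.928 (0.888 to 0.970). These 3 core genes of one particle therefore differed in their ratios. Nop56 passed from the second to the fourth most abundant of the 35 genes. Snu13, the gene of another core protein of the particle outside the 35, stood at 103 and 90.7 FPKM, a ratio of 0.881 (0.824 to 0.942). Ratios between genes of a library do not depend on how the libraries are scaled. There were 2.13 (2.05 to 2.21) Nop56 FPKM per Nop58 FPKM in the wild type and 1.47 (1.42 to 1.54) in the knockout-labelled library, a change by a factor of 0.693 (0.656 to 0.732). The transcripts of this pair have 1904 and 1976 bases, so they hardly differ in length, but their GC content is 50.5% and 41.0%. After centring on genes of like GC content their differences were −0.51 and −0.13, beside −0.49 and 0.04 as deposited. Nop56 was also below Fbl by a factor of 0.767 (0.726 to 0.811) relative to the wild type, while the factor of Fbl to Nop58 was 0.903 (0.849 to 0.961). The introns of Nop56 are known to host small nucleolar RNAs, and how such reads were counted is not given in the sources used here. Whether other genes of the list host them too was not examined, and the part of such reads in the ratio was not tested.

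The H/ACA proteins carry out rRNA pseudouridylation and stabilise telomerase RNA, and among those of the 35 genes Dkc1 was the furthest from 1. Dkc1, the gene of the pseudouridine synthase dyskerin, was listed at 91.0 and 114 FPKM, a ratio of 1.25 (1.20 to 1.31). Nhp2 stood at 95.2 and 99.9 FPKM, a ratio of 1.05 (0.974 to 1.13), and Gar1 at 38.1 and 35.5 FPKM, a ratio of 0.930 (0.835 to 1.04). Neither of the last 2 differed beyond counting error. Nop10, the gene of another H/ACA core protein outside the 35, stood at 113 and 90.0 FPKM, a ratio of 0.799 (0.732 to 0.872). Its difference of −0.32 was as large as that of Dkc1 (0.32) and on the other side of 0. The Dkc1 to Nhp2 ratio was 0.956 (0.899 to 1.02) in the wild type and 1.14 (1.07 to 1.21) in the knockout-labelled library, and the transcript of Dkc1 is the longer, with 2803 against 1004 bases. Nolc1, which encodes Nopp140, a chaperone of both kinds of particle, stood at 121 and 147 FPKM, a ratio of 1.21 (1.17 to 1.25). Of the 7 genes of both kinds of particle among the 35, 4 lay above 0 and 3 below, with a median difference of 0.04. Fbl and Gar1 lay above 0 with equal sums, however, and Nop58 and the median (−0.02) lay below 0 with equal upper quartiles. After centring on length 6 lay above 0 and 1 below, with a median of 0.15.

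**Figure D2:**
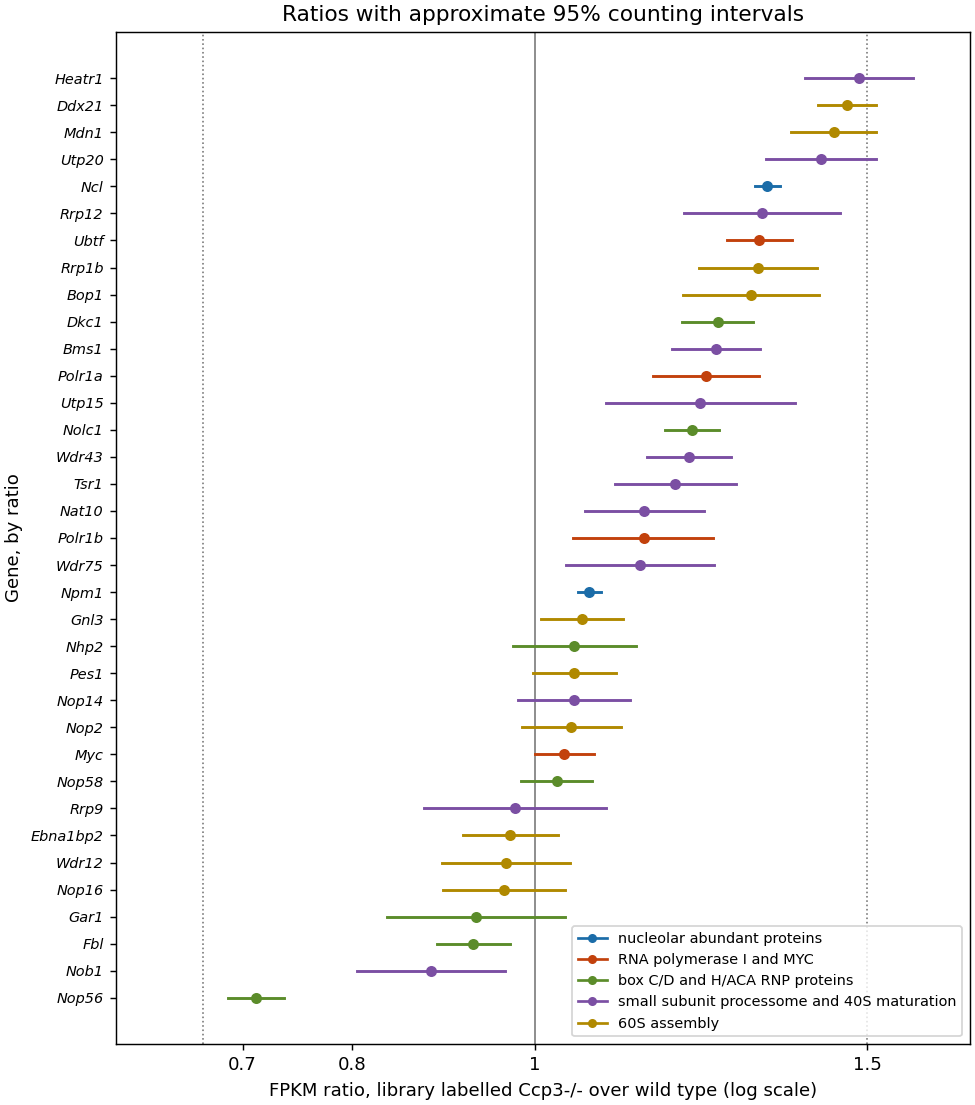
Ratio of FPKM in the library labelled Ccp3-/- to that in the wild type library (log axis) for each of the 35 genes, in order of the ratio and coloured by role, with approximate 95% counting intervals as bars. Dotted lines mark 1.5-fold in each direction; the points run from 0.712 (Nop56) to 1.49 (Heatr1), none lies beyond a dotted line, and 21 intervals lie above 1.

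Among the 12 genes of the small subunit processome and of 40S maturation, 10 lay above 0 and 2 below (12 and 0 with equal sums), with a median difference of 0.25. Heatr1, the homologue of yeast Utp10 that is needed for early pre-rRNA transcription and processing, was listed at 15.1 and 22.4 FPKM, a ratio of 1.49 (1.39 to 1.59). Utp20, a large scaffold of the processome, stood at 11.3 and 16.1 FPKM, a ratio of 1.42 (1.33 to 1.52). Rrp12, which accompanies pre-40S particles to the cytoplasm, stood at 11.9 and 15.7 FPKM, a ratio of 1.32 (1.20 to 1.45). These 3 were the furthest apart and among the least abundant of the 35. Bms1, a GTPase of the processome, was listed at 38.6 and 48.2 FPKM with a ratio of 1.25, and Utp15, a subunit of its UTP-A part, at 9.10 and 11.1 FPKM with 1.22. The UTP-A subunits Wdr43 (54.5 and 65.8 FPKM) and Wdr75 (23.8 and 27.1 FPKM), had ratios of 1.21 and 1.14. The intervals of all 4 lay above 1. Tsr1, a late 40S factor, was listed at 26.5 and 31.5 FPKM, a ratio of 1.19, and Nat10, the acetyltransferase of small subunit rRNA, at 24.6 and 28.1 FPKM, a ratio of 1.14. Nop14, another processome protein, stood at 41.3 and 43.3 FPKM and Rrp9, the protein specific to U3, at 29.3 and 28.6 FPKM, and the intervals of both included 1. Nob1, the nuclease that makes the final cut of 18S rRNA, was the low one at 43.7 and 38.5 FPKM, a ratio of 0.881 (0.805 to 0.964), although it lay above 0 with equal sums.

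Of the 10 genes of 60S assembly, 7 lay above 0 and 3 below (10 and 0 with equal sums), with a median difference of 0.08. Ddx21, an RNA helicase of the nucleolus that also binds RNA polymerase II genes, was listed at 74.8 and 109 FPKM from about 5410 and 7343 reads, a ratio of 1.46 (1.41 to 1.52). Mdn1, the very large ATPase that strips assembly factors from pre-60S particles, stood at 9.32 and 13.4 FPKM, a ratio of 1.44 (1.37 to 1.52). Rrp1b, a nucleolar protein of late rRNA processing, stood at 19.5 and 25.6 FPKM, a ratio of 1.31 (1.22 to 1.41). The subunits of the PeBoW complex, which is needed for maturation of the large subunit rRNA, did not share one ratio. Bop1 was listed at 28.1 and 36.5 FPKM with a ratio of 1.30 (1.20 to 1.41), Pes1 at 69.8 and 73.2 FPKM with 1.05 (0.997 to 1.10), and Wdr12 at 30.7 and 29.6 FPKM with 0.965 (0.893 to 1.04). Pes1 relative to Wdr12 was thus alike within counting error, at 2.27 and 2.47, a factor of 1.09 (0.991 to 1.19). Relative to Bop1, Wdr12 went from 1.09 to 0.811, a factor of 0.742 (0.663 to 0.830), and Pes1 from 2.49 to 2.004, a factor of 0.806 (0.732 to 0.888). The 3 transcripts have 2476 to 2934 bases, so these partners too are of like length. Their GC content differs, at 58.2% for Bop1, 50.2% for Pes1 and 43.6% for Wdr12. After centring on genes of like GC content their differences were 0.48, 0.08 and −0.20. The remaining genes were close to 1. They were Nop2, the gene of a methyltransferase of the large subunit rRNA (54.3 and 56.8 FPKM), Nop16 (57.9 and 55.8 FPKM), Ebna1bp2 (54.9 and 53.3 FPKM) and Gnl3, the gene of nucleostemin (109 and 115 FPKM). Of these only Gnl3 had an interval without 1, at 1.06 (1.01 to 1.11). Nop16, Ebna1bp2 and Wdr12 changed from below to above 0 with equal sums, as did Rrp9 among the small subunit genes.

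**Figure D3:**
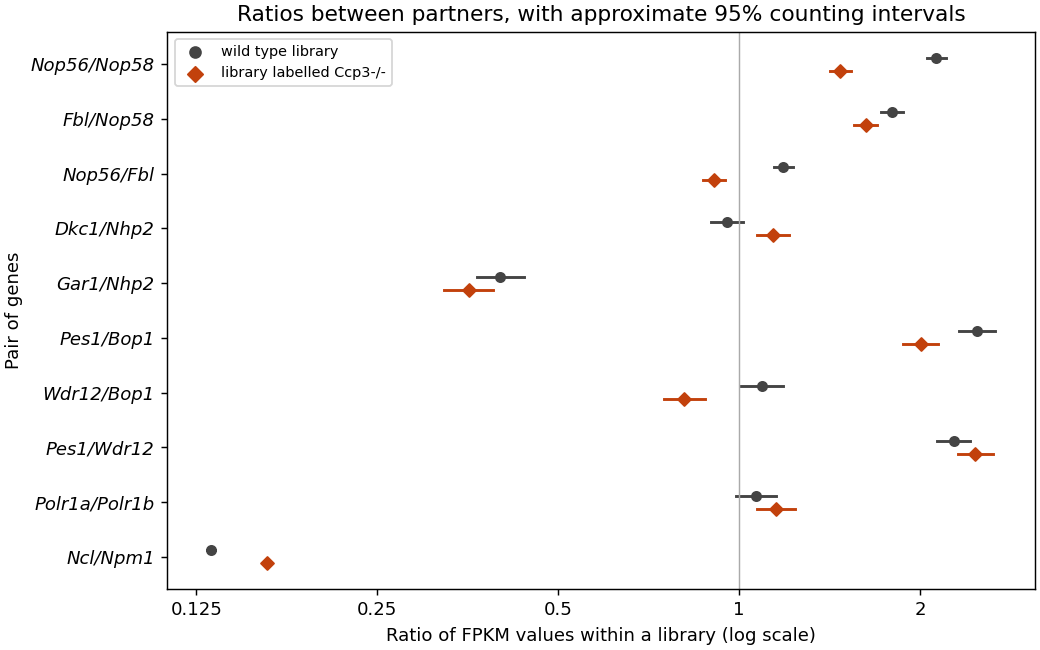
FPKM ratio between partner genes within the wild type library (circles) and within the library labelled Ccp3-/- (diamonds), on a log axis, with approximate 95% counting intervals as bars. The Nop56 to Nop58 ratio goes from 2.13 to 1.47 and the Wdr12 to Bop1 ratio from 1.09 to 0.811, while the intervals of the Polr1a to Polr1b and Pes1 to Wdr12 ratios overlap between the libraries.

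Transcript length went with the order of the 35 genes. Across them the Spearman correlation of the difference with the length in the files was 0.82, against 0.43 across all 11985 genes; genes of a library are not independent, and all points share the same 2 libraries. The 10 genes under 2000 bases had a median difference of −0.04, where 4032 genes of that length had −0.18. The 13 genes of 2000 to 4000 bases had 0.18, against 0.02 over 4856 genes, and the 12 genes of 4000 bases or more had 0.38, against 0.20 over 3097 genes. In each length class, then, the members sat above the median of all genes, as did the further pathway genes described below (−0.05, 0.11 and 0.26). All 12 members of the longest class lay above 0, as did 2351 of the 3097 genes of that length and 14 of 17 further pathway genes. When the median of the 200 genes nearest in length was taken off each gene, the median of the 35 was 0.14 and 31 lay above 0. Their median absolute deviation narrowed from 0.14 to 0.08, while over all genes it went from 0.23 to 0.20. Ddx21 (0.40), Bop1 (0.39), Dkc1 (0.34), Heatr1 (0.30) and Rrp12 (0.29) were then highest, and Mdn1, Utp20 and Ncl came down to 0.17, 0.12 and 0.07. The value of Ncl rests on the length that the files give it. Nop56 was lowest at −0.41, apart from Ebna1bp2 (−0.06), Wdr12 (−0.05) and Nob1 (−0.01), the other genes below 0. GC content of the transcript bore less on the list, with a median of 50.2% for the members and for all genes and a Spearman correlation with the difference of −0.20 (n = 35), and a median difference of 0.16 after centring on genes of like GC content.

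**Figure D4:**
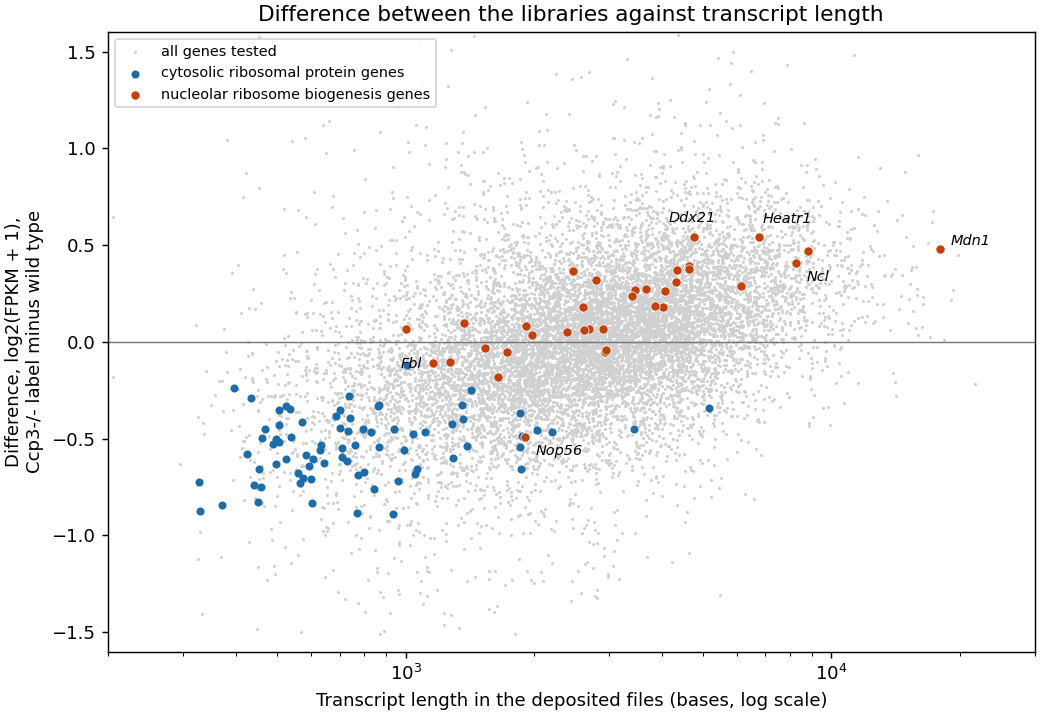
Difference in log2(FPKM + 1), library labelled Ccp3-/- minus wild type, against transcript length in bases (log axis), for all genes past the filter (grey), 76 cytosolic ribosomal protein genes (blue) and the 35 nucleolar genes (orange); 214 genes lie beyond the axes. The nucleolar genes go from between −0.49 and 0.10 among transcripts under 2000 bases to between 0.18 and 0.54 at 4000 bases or more, and Nop56, at −0.49, lies in the range of the ribosomal protein genes.

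The proteins that these factors assemble into ribosomes had transcripts on the other side of 0. Each of 76 cytosolic ribosomal protein genes was listed lower in the library labelled Ccp3-/- (75 of 76 with equal sums), 30 of them by 1.5-fold or more, with differences from −0.89 to −0.12 and a median of −0.53. Rpl14 and Rpl38 were among those that differed most, with ratios of 0.539 and 0.546. Summed ribosomal protein FPKM were 40.9 times the summed FPKM of the 35 nucleolar genes in the wild type and 26.02 times in the knockout-labelled library, a factor of 0.636 that does not depend on scaling and was 0.635 without Npm1. The 35 genes made up 0.747% and 0.913% of all FPKM, and ribosomal protein genes 30.6% and 23.7%. The ribosomal protein transcripts are short, with a median of 709 bases against 2934 for the nucleolar genes. After centring on length their median was −0.26, 69 lay below 0 and 7 above, and 2 were still at least 1.5-fold lower. The medians of the lists were then nearer each other, at −0.26 and 0.14, and on opposite sides of 0. Whether the lists differ beyond what separate libraries of one genotype would show was not tested.

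Further genes of the pathway, 144 in 5 lists that hold none of the 35, were examined beside them. At 1.5-fold, 0 were higher and 1 was lower, 94 lay above 0 and 50 below (126 and 18 with equal sums, 75 and 69 with equal upper quartiles), and the median was 0.07. After centring on length the median was 0.10. As deposited, 17 of the 144 were at least 1.25-fold higher and 8 lower, where 17.9% and 17.1% of all genes were. The order of the 144 genes also went with length, with a Spearman correlation of 0.51 (n = 144). The 15 further genes of RNA polymerase I had a median of −0.15 as deposited and of 0.02 after centring on length, beside 0.23 and 0.09 for the polymerase genes and Myc described above. The one gene past 1.5-fold was Znrd1, now named Polr1h, a small zinc-binding subunit, at 46.9 and 26.7 FPKM, a ratio of 0.569 (0.486 to 0.666). Top1, the topoisomerase that relaxes transcribed DNA, stood at 56.7 and 82.9 FPKM and the polymerase subunit gene Polr1e at 13.6 and 10.4 FPKM. The polymerase therefore had subunit transcripts on both sides of 0.

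The 46 further small subunit genes had a median of 0.09 and the 55 further large subunit genes 0.11. In the first list Nol10 (20.03 and 29.3 FPKM), Utp18 (23.7 and 33.9 FPKM) and Imp3, a U3 particle protein (56.1 and 40.2 FPKM), differed most. In the second these were Gnl3l, a GTPase related to nucleostemin (10.9 and 16.1 FPKM), the helicase gene Ddx51 (5.80 and 8.53 FPKM) and Senp3, a SUMO protease of the nucleolus (26.4 and 36.9 FPKM). Factors that put small nucleolar ribonucleoproteins together went both ways, with a median of 0.01 over 11 genes. Pih1d1 (39.6 and 28.5 FPKM) and Znhit3 (10.8 and 7.66 FPKM), both of the box C/D assembly route, were lower, and Naf1 (15.7 and 21.6 FPKM), an H/ACA assembly factor, was higher, each with an interval that left out 1. The 17 genes of the RNA exosome and its helpers, which trim rRNA ends, had a median of 0.05, with Exosc6 (23.9 and 32.6 FPKM), Eri1 (15.1 and 20.2 FPKM) and the nuclease gene Dis3 (20.8 and 27.4 FPKM) furthest apart.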

How the data were processed

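RNA of cells sorted as LT-HSCs was sequenced on a BGISEQ-500, with 1 library per genotype. FPKM values per Entrez gene, with a length and RefSeq transcripts, were made and deposited by the authors, per the file headers. The submitters' processing notes name mm9, HISAT, HISAT2 and RSEM; for versions, settings and strand use, these were not given in the sources used here. The promoter reference used here is of GRCm38 rather than mm9, so coordinates are printed only for RefSeq promoter sequences. Symbols were found for 17169 of 17216 identifiers. Genes missing from one of the files were set to 0.

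The difference was taken on log2(FPKM + 1) over genes averaging 1 FPKM or more, and genes were counted at 1.5-fold, with no test. In 287 and 280 low values of short genes with 1 transcript, FPKM times length less 38 and 37 bases fell on multiples of 65.3 and 70.4, within 0.15 of a whole read for 85.7% and 86.8%. Step and offset were chosen on these same values. Rounded reads gave exact conditional 95% intervals of a ratio, and log-normal ones for ratios between partners. They rest on estimated reads, so they are approximate, and they cover only counting error.

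The members and lists were chosen with earlier results of these data known. The named genes are all 35 members, Agbl3 and, per further list, the 3 largest absolute differences among genes averaging 5 FPKM or more, of which 1 is not reported here; Cd48 and Slamf1 were added for the gate. Other pseudocounts, filters, scalings, a 2-fold rule and centring on length were tried; centring on GC content, partner ratios and the window after the start were chosen after seeing the data. Coding lengths and transcript GC content came from GENCODE M21. Protein composition was not analysed here. The procedure was tested on simulated data. The versions were scipy 1.17.1, pandas 2.3.3, numpy 2.4.6, matplotlib 3.10.9 and Python 3.11.15.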

Additional observations from a re-analysis of the deposited data

How the results depend on the processing

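Among the alternatives run (2 other pseudocounts, 2 other filters, 4 scalings, centring on length or GC content and a 2-fold rule), the median of the 35 genes stayed above 0 and ran from 0.13 to 0.36, and 0 were at least 1.5-fold higher or lower except under 2 scalings. With equal FPKM sums, 5 were higher (Ncl, Utp20, Heatr1, Mdn1 and Ddx21), where 12.3% of all genes were, and the median was 0.36. With sums made equal without ribosomal protein genes, 2 were higher (Heatr1 and Ddx21), where 7.22% of all genes were. Both scalings raise every gene of the knockout-labelled library. For the 144 further pathway genes, equal sums gave 12 higher (12.3% of all genes were) and a median of 0.25. Equal sums without ribosomal protein genes gave 1 higher (7.22% of all genes). Centring on length gave 1 higher and 0 lower (4.96% and 4.41% of all genes). Centring on GC content gave 2 lower (5.68% of all genes), and the 2-fold rule gave 0 lower (1.55% of all genes). Of the 76 ribosomal protein genes, 6 were lower with equal sums, 2 after length centring and 0 at 2-fold, where 3.31%, 4.41% and 1.55% of all genes were. Their median was −0.34 with equal sums, −0.48 with sums equal without them, −0.59 with equal upper quartiles and −0.26 after length centring. For single genes and role groups, 606 of the recomputed values stayed within their counting tolerance, 144 moved beyond it, and 0 genes past 1.5-fold changed sign. No paired analysis was possible because each genotype has 1 library, and for the same reason no library could be left out. Depth limits the least abundant members, where about 562 and 638 reads of Utp15 gave an interval from 1.09 to 1.37.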

Other observations

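Genes around the pathway gave further values, reported here without explanation. Among the partners and antagonists of MYC, Mxd1, a repressor that competes for MAX, was listed at 4.86 and 8.95 FPKM, a ratio of 1.84 (1.61 to 2.11), and was the one of 9 measured genes that differed by 1.5-fold. Mnt (15.4 and 20.9 FPKM) and Mxi1 (9.09 and 11.9 FPKM), repressors of the same family, were next, with ratios of 1.35 and 1.31. The median of the network was 0.32, or 0.17 after centring on length, beside Myc itself at 0.05. Whether Mxd1 differs apart from the neutrophil lineage markers that were higher in the same library was not tested.

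As deposited, mitochondrial ribosomal protein genes lay mostly below 0, but less far than the cytosolic ones. Among 78 genes, 60 lay below 0 and 18 above. By 1.5-fold 3 were lower and 0 higher, where 6.13% and 6.11% of all genes were. The median of the 78 was −0.13, and 0.06 after centring on length, where the cytosolic genes had −0.26. Cell cycle genes had a median of 0.11 over 16 genes, 0 past 1.5-fold in either direction, with Rrm2 (54.9 and 78.3 FPKM), Mki67 (98.9 and 140.3 FPKM) and Ccnb1 (a ratio of 1.40) furthest apart.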
